A study of Mus musculus with 2 samples.

Results

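The genes described here are 8 members of the transforming growth factor beta (TGF-beta) system, of 25289 genes in the deposited table: the ligands Tgfb1, Tgfb2 and Tgfb3, the activin subunit Inhba, the receptors Tgfbr1, Tgfbr2 and Tgfbr3, and the induced matrix gene Tgfbi. They were chosen by name, as columns of the table, and followed over the authors' cell classes and over 3 pseudotime paths. Stromal cells of bone marrow from mice of strain C56BL/6 (so spelled in the labels), aged 8 to 16 weeks, were profiled one by one with inDrops, a method that barcodes the RNA of each cell in a droplet. Femurs, tibiae and pelvis were crushed, the fragments were digested for 45 min at 37 °C with collagenase and dispase, and cells that stained for none of CD45, Ter119 and CD31 (blood, red cell and endothelial surface proteins) were sorted. The design has 1 group of 2 samples, Stroma1 and Stroma2, with no treatment and no altered gene. All comparisons are therefore between cell classes within the same samples, and nothing in the labels says whether the samples came from separate animals, so the p-values measure only the spread between these samples, which may be technical.

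TGF-beta is made as a latent precursor, held by binding proteins in the matrix until integrins, proteases or thrombospondin release it. The active ligand binds Tgfbr2, which recruits and phosphorylates Tgfbr1, and Tgfbr1 then activates the transcription factors Smad2 and Smad3. Tgfbr3, also called betaglycan, is a coreceptor without kinase activity that presents ligand, Tgfb2 above all, and also binds inhibin. Bone matrix is a large store of latent TGF-beta, which is released as bone is resorbed and acts on osteoblast and stromal progenitors.

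Cells that passed the filter numbered 948 in Stroma1 (1658990 counts) and 1899 in Stroma2 (3687913 counts), and 6 of the 7 deposited classes held enough cells for a test: MSC, Pro-osteoblast, Pre-osteoblast/chondrocyte, Osteoblast progenitor, Pre-adipocyte and Adipocyte progenitor. Class sums ranged from 55218 counts (Pre-osteoblast/chondrocyte of Stroma1, 25 cells) to 1450797 counts (Pro-osteoblast of Stroma2, 305 cells). All 5 MSC markers were detected in MSC, at 70101 and 72191 CPM (counts scaled to the total of a class and sample), and the 7 osteoblast markers made up 212121 and 210573 CPM of Pro-osteoblast. The MSC markers were nearly as high in Adipocyte progenitor (65177 and 65848 CPM). They stood at 54447 and 49110 CPM in Pre-adipocyte and 52785 and 46186 CPM in Osteoblast progenitor, so they set MSC little apart from these classes. The class named Pro-chondrocyte, with 4 and 10 cells, held no count of any of 5 chondrocyte markers and was not tested. Blood markers summed to between 33 and 241 CPM in the tested classes. Of the passing cells, 64 in Stroma1 and 435 in Stroma2 had a barcode that also occurred in another library of the sample, and 12 barcodes occurred in both samples. No doublet caller was run, and whether doublets were removed before deposit is not given in the sources used here.

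The members differed widely in how often they were counted, which sets what can be said of each. The passing cells held 2191 counts of Tgfbr3, 473 of Tgfbr2, 214 of Tgfbr1, 145 of Tgfb3, 130 of Tgfb1, 109 of Tgfb2, 98 of Tgfbi and 15 of Inhba. These numbers do not rank the genes by abundance, since no length was taken into account. Counts were summed per class and sample and tested with edgeR's quasi-likelihood test, with trimmed mean of M values (TMM) scaling, a term for sample and p-values adjusted by Benjamini-Hochberg over 6229 genes. An adjusted p under 0.05 is called here. Of the members, 6 passed the count filter of the class fit, and Tgfb2 and Inhba did not. The 6 that passed gave 10 calls in 36 comparisons of a class with the mean of the other 5, and 6 of the calls were of Tgfbr3. Of all genes tested, 9.15% to 39.3% were called in these comparisons.

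**Figure D1:**
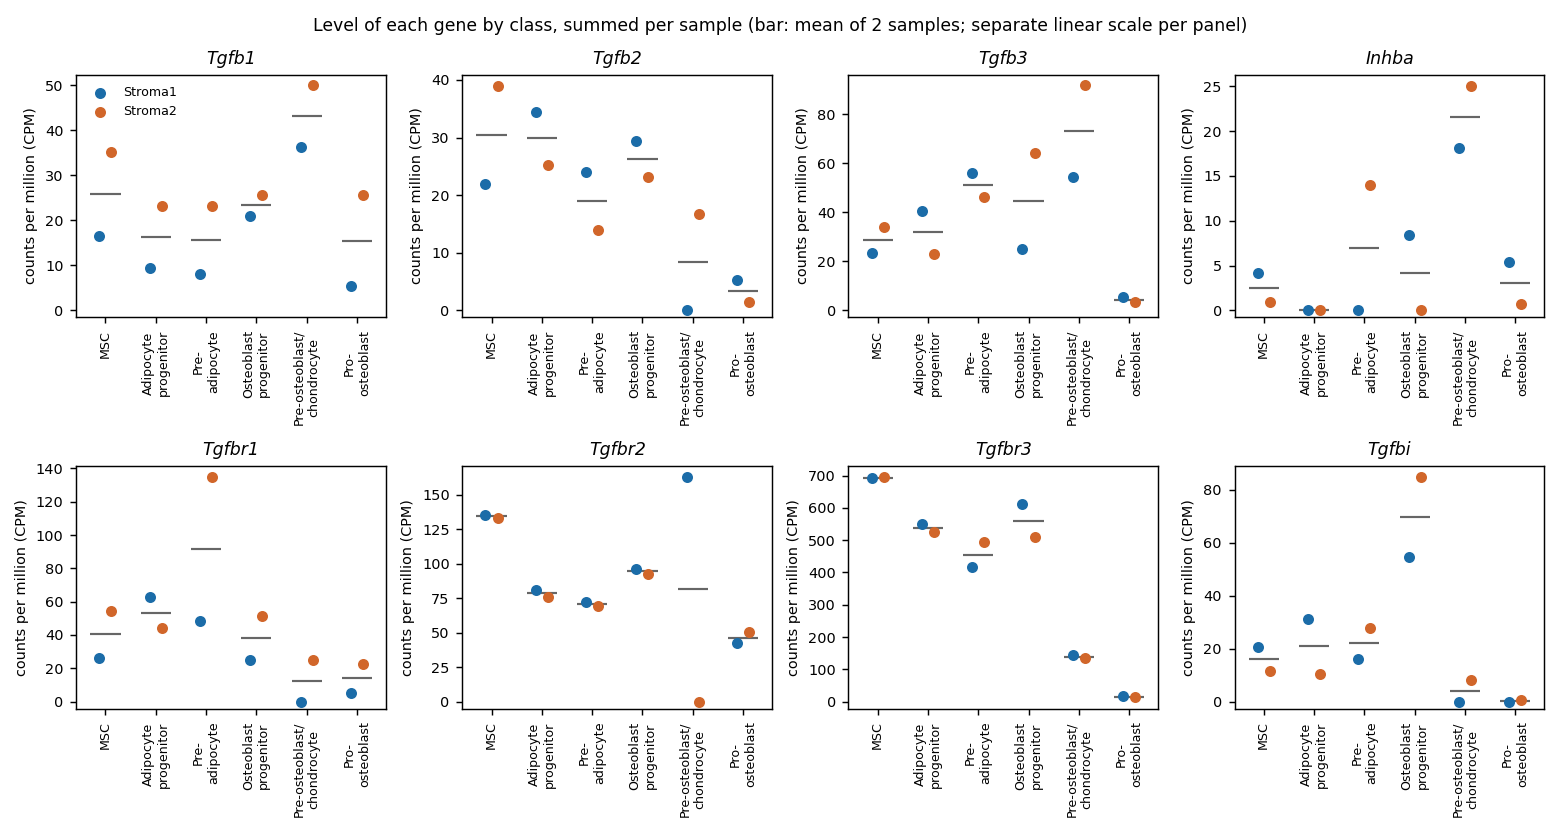
Level of each of the 8 genes (vertical axis, CPM, a separate linear scale per panel) in the 6 tested classes (horizontal axis); points are the 2 samples and bars their mean. Tgfbr3 stands between 417 and 696 CPM in MSC, both adipocyte classes and Osteoblast progenitor and at 16.0 and 13.1 CPM in Pro-osteoblast, while Tgfbi is highest in Osteoblast progenitor.

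Among the ligands, Tgfb3 showed the clearest difference between classes: it was present in every class up to Pre-osteoblast/chondrocyte and nearly absent from Pro-osteoblast. Tgfb3 (GRCm38 chromosome 12, 86056745 to 86079041, minus strand) stood at 54.3 CPM in Stroma1 and 91.9 CPM in Stroma2 in Pre-osteoblast/chondrocyte, from 3 and 11 counts. In Pro-osteoblast it stood at 5.34 and 3.45 CPM, below both samples of each other class. The fall from Pre-osteoblast/chondrocyte to Pro-osteoblast was a log2 change of −3.39 (SE 0.82, adjusted p = 0.001 with edgeR), and Pro-osteoblast lay below the mean of the other classes by −2.52 (SE 0.63, adjusted p = 0.00059). The other classes overlapped: Pre-adipocyte held 56.2 and 46.5 CPM, Osteoblast progenitor 25.1 and 64.3, Adipocyte progenitor 40.7 and 23.1, and MSC 23.3 and 34.1. The excess in Pre-osteoblast/chondrocyte was not called (log2 difference from the mean of the other classes 1.54, SE 0.57, adjusted p = 0.064), though it was with total counts as the scale (1.68, adjusted p = 0.038) or with each barcode kept once (1.68, adjusted p = 0.039).

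Tgfb1, the isoform most abundant in bone matrix, was low in every class and no comparison called it. Tgfb1 (chromosome 7, 25687002 to 25705077, plus strand) ranged from 8.02 CPM in Pre-adipocyte of Stroma1 to 50.1 CPM in Pre-osteoblast/chondrocyte of Stroma2, apart from Pro-osteoblast at 5.34 and 25.5 CPM. It was higher in Stroma2 than in Stroma1 in each of the 6 classes, with 28.7 CPM over all passing cells of Stroma2 and 14.5 CPM over those of Stroma1, and the sample ranges of most classes overlapped. With counts of 1 to 37 per class and sample, differences between classes were not detectable at this depth.

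Tgfb2 was counted in MSC and the progenitor classes and hardly in Pro-osteoblast. Tgfb2 (chromosome 1, 186622792 to 186705989, minus strand) stood at 21.9 and 39.0 CPM in MSC, 34.4 and 25.2 in Adipocyte progenitor, 29.3 and 23.1 in Osteoblast progenitor and 24.1 and 13.9 in Pre-adipocyte. The first 3 overlapped one another, and Pre-adipocyte overlapped MSC and Osteoblast progenitor. Pro-osteoblast held 3 Tgfb2 counts in both samples together, 5.34 and 1.38 CPM. The pooled ratio of MSC to Pro-osteoblast was 17.4 (95% interval 5.66 to 87.0, counting error only), and with 2 counts in Pre-osteoblast/chondrocyte the ratio of MSC to that class, 2.79 (0.737 to 23.6), spanned equality. Tgfb2 did not pass the count filter, so the main fit made no test of it across samples. The alternative without that filter covered it, and its value there is not given here. Inhba, a subunit of activin A and of inhibin A (chromosome 13, 16011851 to 16031621, plus strand), had at most 3 counts in any class and sample. Its highest level was 18.1 and 25.1 CPM in Pre-osteoblast/chondrocyte, from 1 and 3 counts, and Adipocyte progenitor held none, which allows up to 3.77 CPM (3 counts over the class).

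Tgfbr3 set the classes apart more than any other member: it was high in MSC, in both adipocyte classes and in Osteoblast progenitor, several-fold lower in Pre-osteoblast/chondrocyte and lowest in Pro-osteoblast. The coreceptor gene (chromosome 5, 107106570 to 107289629, minus strand) reached 691 CPM in Stroma1 and 696 CPM in Stroma2 in MSC, 612 and 509 in Osteoblast progenitor, 551 and 524 in Adipocyte progenitor and 417 and 493 in Pre-adipocyte. In Pre-osteoblast/chondrocyte it stood at 145 and 134 CPM and in Pro-osteoblast at 16.0 and 13.1 CPM. In the order of the means, MSC (693 ± 3.33, SD, n = 2) lay above Osteoblast progenitor (560 ± 72.8) and Adipocyte progenitor (537 ± 19), whose samples overlapped. Then came Pre-adipocyte (455 ± 53.3), Pre-osteoblast/chondrocyte (139 ± 7.95) and Pro-osteoblast (14.6 ± 2.07), none of which overlapped its neighbour.

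Against the mean of the other 5 classes, Tgfbr3 was higher in MSC by a log2 difference of 1.47 (SE 0.12, adjusted p = 1.1e-17 with edgeR), where 20.6% of all genes tested were called. It was higher in Adipocyte progenitor by 1.22 (SE 0.14, adjusted p = 9e-12), among 15.4% of genes called there. It was also higher in Osteoblast progenitor by 1.12 (adjusted p = 2.3e-09) and in Pre-adipocyte by 1.12 (adjusted p = 1.4e-07), with 9.15% and 20.7% of genes called. With Pro-osteoblast left out of the mean all 4 differences were smaller: the last 2 were both 0.37 and lost their call (adjusted p = 0.13 and 0.15), while MSC at 0.73 (adjusted p = 2e-06) and Adipocyte progenitor at 0.47 (adjusted p = 0.019) kept theirs. Tgfbr3 was lower in Pre-osteoblast/chondrocyte by −1.09 (SE 0.30, adjusted p = 0.0058; 12.2% of genes called), a call lost without library 2.3 (−0.86, adjusted p = 0.069). In Pro-osteoblast it was lower by −3.85 (SE 0.26, adjusted p = 2.1e-23), where 39.3% of all genes were called.

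Between neighbouring classes the fall of Tgfbr3 came in 2 steps. From MSC to Osteoblast progenitor it differed by −0.29 (SE 0.14, adjusted p = 0.27) and from MSC to Adipocyte progenitor by −0.21 (SE 0.14, adjusted p = 0.66), neither called. From Osteoblast progenitor to Pre-osteoblast/chondrocyte it fell by 1.84 (SE 0.29, adjusted p = 7e-07), the only member called among 9.31% of genes. From there to Pro-osteoblast it fell by a further 2.30 (SE 0.47, adjusted p = 8.5e-05), with Tgfb3 the other member called among 17.2% of genes. Both steps kept their call in every alternative run, with log2 changes of −2.11 to −1.41 and −3.35 to −1.95. In the adipocyte direction 0 of 6 members were called by edgeR from MSC to Adipocyte progenitor (4.17% of genes) and from there to Pre-adipocyte (4.96% of genes). DESeq2 called 0 as well, and 0 and 1 members had an unadjusted edgeR p under 0.05.

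Within each library Tgfbr3 was highest in MSC, and lower in Pre-osteoblast/chondrocyte and Pro-osteoblast than in the other classes. The place of Pre-adipocyte varied, with 274 to 567 CPM. It lay below both progenitor classes in libraries 1.1 and 2.3, above both in 1.2 and 2.2, and between them in 2.1. In MSC the 5 libraries ranged from 606 to 802 CPM of Tgfbr3, and in Pro-osteoblast from 0 to 35.1 CPM. Library 2.3 stood apart in Pre-osteoblast/chondrocyte, with 1 count (25.6 CPM) where the other 4 libraries held 110 to 221 CPM.

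The difference was also one of how many cells held the transcript. A Tgfbr3 count was found in 54.0% of MSC cells of Stroma1 (exact Clopper-Pearson 95% interval 49.5 to 58.4) and 48.5% of Stroma2 (45.0 to 52.0). In Pro-osteoblast it was found in 4.76% (0.581 to 16.2) and 5.57% (3.28 to 8.77), although those cells were sequenced more deeply, with medians of 4422 and 4201 counts against 1377.5 and 1160 in MSC. With each cell thinned to 500 counts, and no cell too shallow, the shares were 27.7% and 26.3% in MSC and 0% and 0.656% in Pro-osteoblast. Barcodes outside the filter that held blood markers gave 3.40% and 1.64% before thinning (medians of 1205 and 1039.5 counts) and 0.680% and 0.546% after. The share of Pro-osteoblast was near theirs after thinning and higher before it, at greater depth. That the blood-marker barcodes lack the gene was not tested. Whether the low counts of Pro-osteoblast are expression or background was not tested either, and they were not read as expression.

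**Figure D2:**
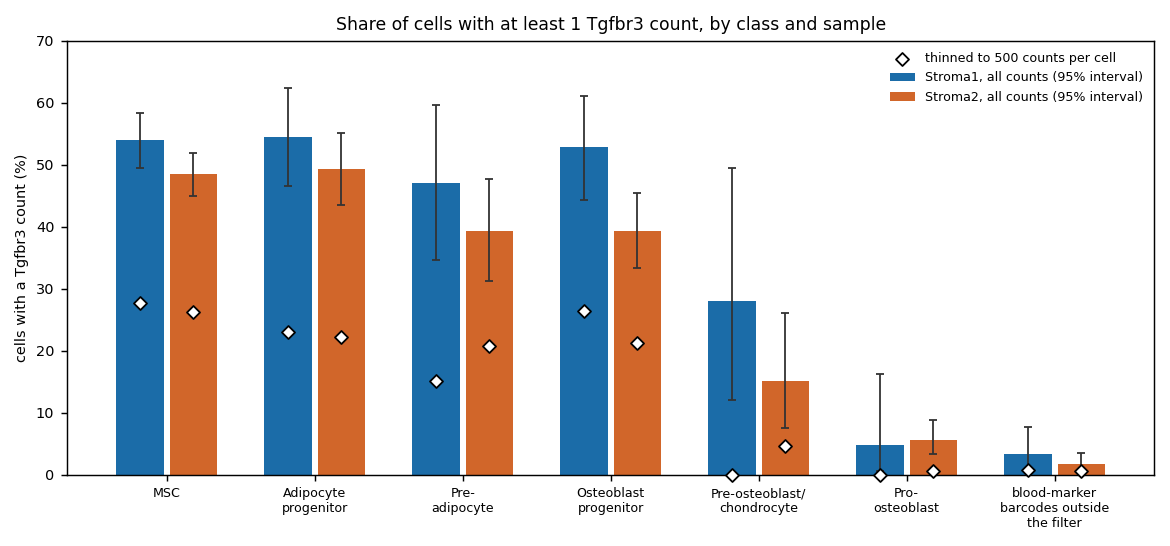
Percent of cells with at least 1 Tgfbr3 count (bars, with exact 95% intervals for counting error) by class and sample, beside barcodes with blood markers outside the filter; diamonds give the percent after thinning each cell to 500 counts. Between 39.2% and 54.5% of cells of the MSC, adipocyte and Osteoblast progenitor classes held a count, against 4.76% and 5.57% in Pro-osteoblast.

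Tgfbr2, the receptor that binds ligand first, varied less and its samples agreed closely in most classes. Tgfbr2 (chromosome 9, 116084293 to 116175360, minus strand) stood at 136 and 134 CPM in MSC, above both samples of Osteoblast progenitor (96.4 and 92.5), Adipocyte progenitor (81.3 and 75.7), Pre-adipocyte (72.2 and 69.7) and Pro-osteoblast (42.7 and 50.3). Pre-osteoblast/chondrocyte split by sample: 9 counts in 5 of 25 cells of Stroma1 (163 CPM) and 0 in 66 cells of Stroma2, which allows up to 25.1 CPM. The excess in MSC missed the threshold (log2 difference 0.61, SE 0.25, adjusted p = 0.068 with edgeR), and it was called in 7 of 14 alternatives with values of 0.48 to 1.0 over all of them. In the fit of all passing cells with TMM scaling, no class difference of Tgfbr2 was called, and 5 of those 7 alternatives also used TMM.

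Tgfbr1, the signalling kinase, had its highest mean level in Pre-adipocyte, although in Stroma1 it was higher in Adipocyte progenitor. Tgfbr1 (chromosome 4, 47353222 to 47414931, plus strand) stood there at 48.1 and 135 CPM, from 6 and 29 counts. In this class the 5 chondrocyte markers also differed between the samples, with 120 and 1050 CPM, and their part in the Tgfbr1 level was not tested. Adipocyte progenitor held 62.6 and 44.2 CPM, MSC 26.1 and 54.6, Osteoblast progenitor 25.1 and 51.4, Pro-osteoblast 5.34 and 22.7 and Pre-osteoblast/chondrocyte 0 and 25.1. The ranges of Pre-adipocyte and its neighbours overlapped, but within each sample the difference from the mean of the others had the same sign (2.28 and 1.79). That mean depends on how the fit treats low classes. Pre-osteoblast/chondrocyte held 0 and 3 counts, and Pro-osteoblast of Stroma1 held 1. The fitted difference was 1.63 (SE 0.41, adjusted p = 0.0013 with edgeR), called in all 14 alternatives. The step from Adipocyte progenitor to Pre-adipocyte was not called (0.94, SE 0.47, adjusted p = 0.35).

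Tgfbi encodes an adhesive matrix protein named for its induction by TGF-beta, and its transcript was highest in Osteoblast progenitor in both samples. Tgfbi (chromosome 13, 56609523 to 56639562, plus strand) stood there at 54.5 CPM in Stroma1 and 84.8 CPM in Stroma2. No other class reached these levels: Adipocyte progenitor held 31.3 and 10.5 CPM, Pre-adipocyte 16.0 and 27.9, MSC 20.6 and 11.7, Pre-osteoblast/chondrocyte 0 and 8.35 and Pro-osteoblast 0 and 0.689. In Stroma2, 56.9% of all Tgfbi counts (33 of 58, interval 43.2 to 69.8) lay in a class that held 10.6% of all counts of the sample. In Stroma1 the figures were 32.5% (13 of 40, 18.6 to 49.1) and 14.4%. The 13 counts of Stroma1 came from 5 cells, one of which held 5, and the 33 of Stroma2 from 23 cells.

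Osteoblast progenitor exceeded MSC in Tgfbi by a log2 difference of 2.22 (SE 0.58, adjusted p = 0.0048 with edgeR), the only member called in that step, where 7.93% of genes were called. The difference was 1.41 in Stroma1 and 2.85 in Stroma2. The call was lost with DESeq2 (2.18, adjusted p = 0.064) and without library 2.3 (1.69, adjusted p = 0.095), and without library 1.2 the gene did not pass the count filter. Compared with the mean over the remaining classes, the difference was 2.81 (SE 0.54, adjusted p = 4.1e-05), a value that depends on how the fit treats classes with 1 count, and Pro-osteoblast lay below the mean (−3.58, SE 1.22, adjusted p = 0.014; not called without library 2.3). From pooled counts, the ratio of Osteoblast progenitor to Pro-osteoblast was 120 (interval 20.5 to 4843) and that to Pre-osteoblast/chondrocyte 12.8 (2.19 to 517), for counting error only. The step from Osteoblast progenitor to Pre-osteoblast/chondrocyte missed the threshold (−3.41, SE 1.22, adjusted p = 0.063). It was called in 2 of 11 alternatives, among them edgeR with total counts (−3.59, adjusted p = 0.042), with values of −7.08 to −1.48 over all of them. When cells were clustered again without the genes of the lists, 46.5% of Osteoblast progenitor cells fell in clusters of that name, the lowest share of the 6 tested classes, and Tgfbi was called there in both comparisons.

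**Figure D3:**
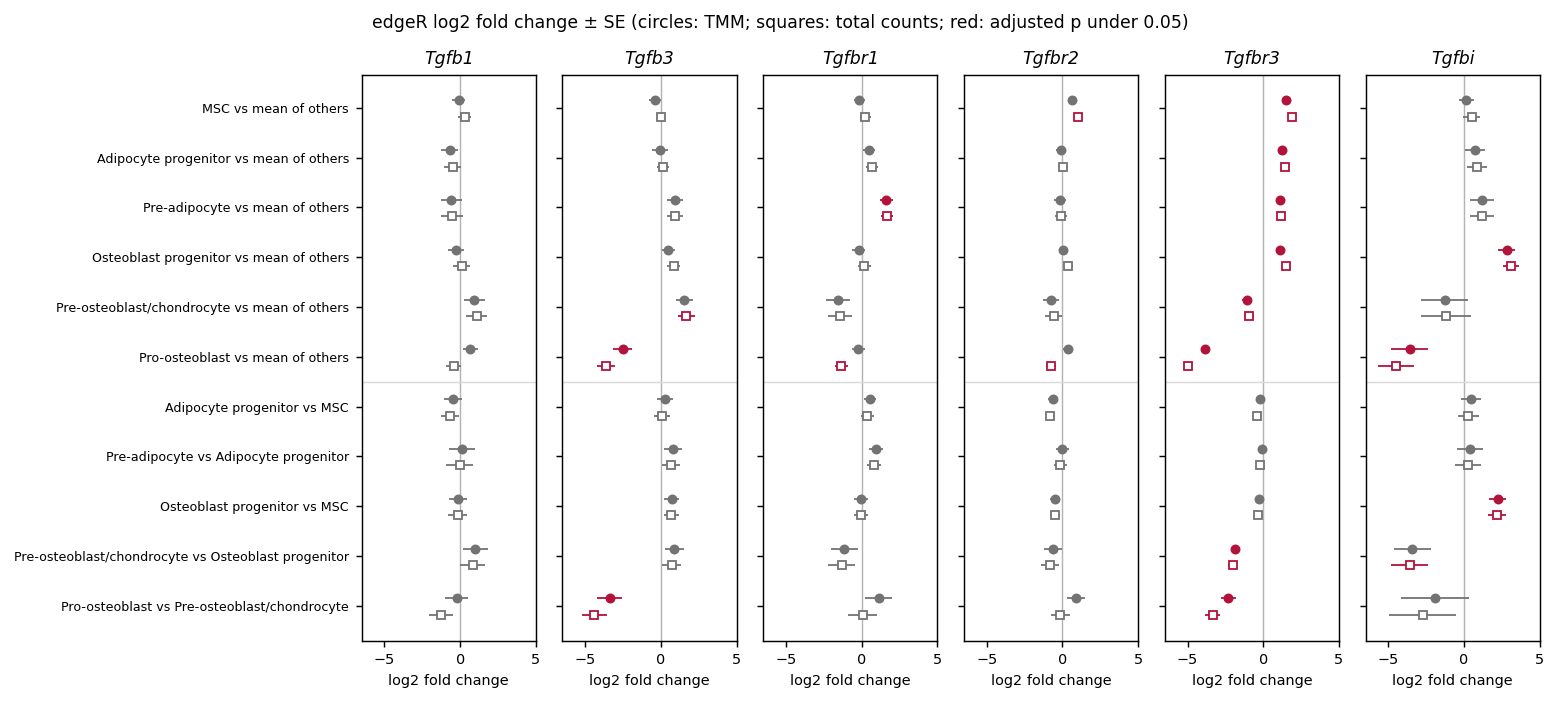
edgeR log2 fold changes (horizontal axis, ± SE) of the 6 tested members for each class against the mean of the others and for each step between neighbouring classes (vertical axis); circles use TMM scaling, squares total counts, and red marks an adjusted p under 0.05. The Pro-osteoblast values shift to the left with total counts, and Tgfbr3 is called there under both scalings.

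The scaling changes what can be said of Pro-osteoblast. Its TMM factors were 0.590 and 0.506, against 1.25 in both samples of MSC. With total counts in place of TMM, an alternative added after the data were seen, the median log2 difference of all genes in Pro-osteoblast moved from 0.03 to −1.07, and the share of calls that were higher from 54.3% to 10.2%. Tgfbr3 (−4.96), Tgfb3 (−3.60) and Tgfbi (−4.47) were then still called lower and lay below that median. Tgfbr2 changed sign, from 0.35 (adjusted p = 0.40) to −0.75 (adjusted p = 0.030), and Tgfbr1 went from −0.22 (adjusted p = 0.75) to −1.34 (adjusted p = 0.0069). Relative to the median of all genes, the fitted Tgfbr2 value of Pro-osteoblast was not lower under either scaling. With 1 sample left out and TMM, however, that value ranged from −0.39 to 1.94. The mean of the other classes also depends on how the fit treats Pre-osteoblast/chondrocyte, which held 0 Tgfbr2 counts in Stroma2.

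Promoter sequence was available for part of the members, in a RefSeq table of the GRCm38.p6 build that held 6 of the 8. It held no entry for Tgfbr3 or Tgfb3. Windows that end just before the gene start are shown for Tgfbi, which had its highest level in Osteoblast progenitor, and for Tgfbr2. The mean level of Tgfbr2 was lower at the end than at the start of each path described next. Capitals mark CAGAC, the core that Smad proteins bind, or its reverse complement GTCTG, which overlap neither each other nor another motif searched.
Tgfbi, chr13:56609336-56609522, plus strand: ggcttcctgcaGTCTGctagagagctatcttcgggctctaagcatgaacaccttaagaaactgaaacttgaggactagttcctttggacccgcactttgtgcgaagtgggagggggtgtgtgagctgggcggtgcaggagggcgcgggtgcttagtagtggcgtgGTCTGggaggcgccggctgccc
Tgfbr2, chr9:116175364-116175613, minus strand: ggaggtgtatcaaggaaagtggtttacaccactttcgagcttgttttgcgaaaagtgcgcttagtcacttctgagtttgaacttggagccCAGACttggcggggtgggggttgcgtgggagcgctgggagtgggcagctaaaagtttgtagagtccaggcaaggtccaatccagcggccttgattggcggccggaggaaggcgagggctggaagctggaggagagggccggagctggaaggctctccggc
The Tgfbi window of 187 bases held 2 matches and the Tgfbr2 window of 250 bases held 1. Among 32851 promoters, 34.2% held at least 1 match in a window of 187 bases and 42.2% in one of 250 bases, so such a match is common. Neither window held TGANTCA, the AP-1 motif, or TGTGGT, the core of the Runx motif, on either strand.

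Along the authors' paths, which order cells from MSC toward each fate, the mean level of Tgfbr2 was highest in the first segment. The largest drop of the mean Tgfbr3 level came into the last segment on the osteoblast and chondrocyte paths, and from the third to the fourth on the adipocyte path (677 to 549 CPM). Each path was split into 5 segments of equal pseudotime, which hold near equal numbers of cells because the deposited pseudotime is an evenly spaced rank, and the last was compared with the first in an edgeR fit of its own. The first segment was all MSC on each path, and the 3 paths shared nearly all of its cells (359 to 379), so the comparisons are not independent of one another. The last segment was 89.4% Pro-osteoblast on the osteoblast path, 67.7% Osteoblast progenitor and 24.5% Pre-osteoblast/chondrocyte on the chondrocyte path, and 55.4% Pre-adipocyte and 44.3% Adipocyte progenitor on the adipocyte path. They are thus another cut of the cells compared above, and the order may itself rest on these genes.

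On the osteoblast path Tgfbr3 stood at 686 and 783 CPM in the first segment, 654 and 544 in the fourth and 14.5 and 17.3 in the last. The samples of the last segment lay far below those of all others, and the log2 change was −4.33 (SE 0.27, adjusted p = 3.1e-22 with edgeR), where 37.5% of genes were called. A straight line over the 5 segments did not call it (−2.32 over the whole path, adjusted p = 0.14). Tgfbr2 was 168 and 192 CPM in the first segment, 95.3 and 141 in the second and 48.2 and 49.1 in the last. Its change was −0.80 (SE 0.31, adjusted p = 0.036), a call lost in 9 of 14 alternatives, among them DESeq2 (−0.84, adjusted p = 0.19), and far larger with total counts (−1.92, adjusted p = 2.8e-07). With total counts Tgfb3 (−2.65), Tgfbi (−2.73) and Tgfbr1 (−1.39) were called as well, while the median of all genes moved from −0.02 to −1.14 and the share of calls that were higher from 49.4% to 10.7%. Tgfbi rose to 58.3 and 88.1 CPM in the fourth segment, which was 79.5% Osteoblast progenitor, and was at 0 and 3.32 CPM in the last; its change from first to last was not called (−1.65, adjusted p = 0.18).

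On the chondrocyte path Tgfbr3 went from 668 and 779 CPM in the first segment to 360 and 365 CPM in the last, a log2 change of −0.93 (SE 0.16, adjusted p = 4.5e-06), where 18.6% of genes were called. Tgfbi went from 36.2 and 10.8 CPM to 62.4 and 82.3 CPM (log2 change 1.83, SE 0.65, adjusted p = 0.037). Its samples did not overlap, but the call was lost with DESeq2 (adjusted p = 0.29), with a linear term and without library 2.1 or 2.3. Tgfbr2 went from 176 and 194 CPM to 125 and 62.9 CPM (−1.03, SE 0.32, adjusted p = 0.016), with a change of −0.42 in Stroma1 and −1.55 in Stroma2. That call was lost with DESeq2 (adjusted p = 0.22), in 3 bins, with a linear term and without library 2.2.

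On the adipocyte path Tgfbr2 was the only member called, among 12.1% of genes. It went from 165 and 195 CPM to 58.1 and 77.0 CPM, with no overlap, a log2 change of −1.14 (SE 0.33, adjusted p = 0.012) that was near equal in the samples (−1.24 and −1.09). The call was lost with DESeq2 (adjusted p = 0.13) and without library 1.1, 2.1 or 2.2, with values of −1.62 to −0.80 over all alternatives. Tgfbr1 moved the other way, from 38.8 and 43.8 CPM to 66.4 and 89.8 CPM, and was not called (1.18, SE 0.45, adjusted p = 0.083), though it was in 3 bins (1.27, adjusted p = 0.0082) and with a linear term (1.49, adjusted p = 0.024). Tgfbr3 went from 679 and 761 CPM to 527 and 459 CPM (−0.31, SE 0.15, adjusted p = 0.19), called with total counts (−0.58, adjusted p = 0.0031) and in 3 bins (−0.33, adjusted p = 0.048). The second segment of this path, still 99.7% MSC, held 102 and 138 CPM of Tgfbr2, so part of the difference lay among cells of that class.

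**Figure D4:**
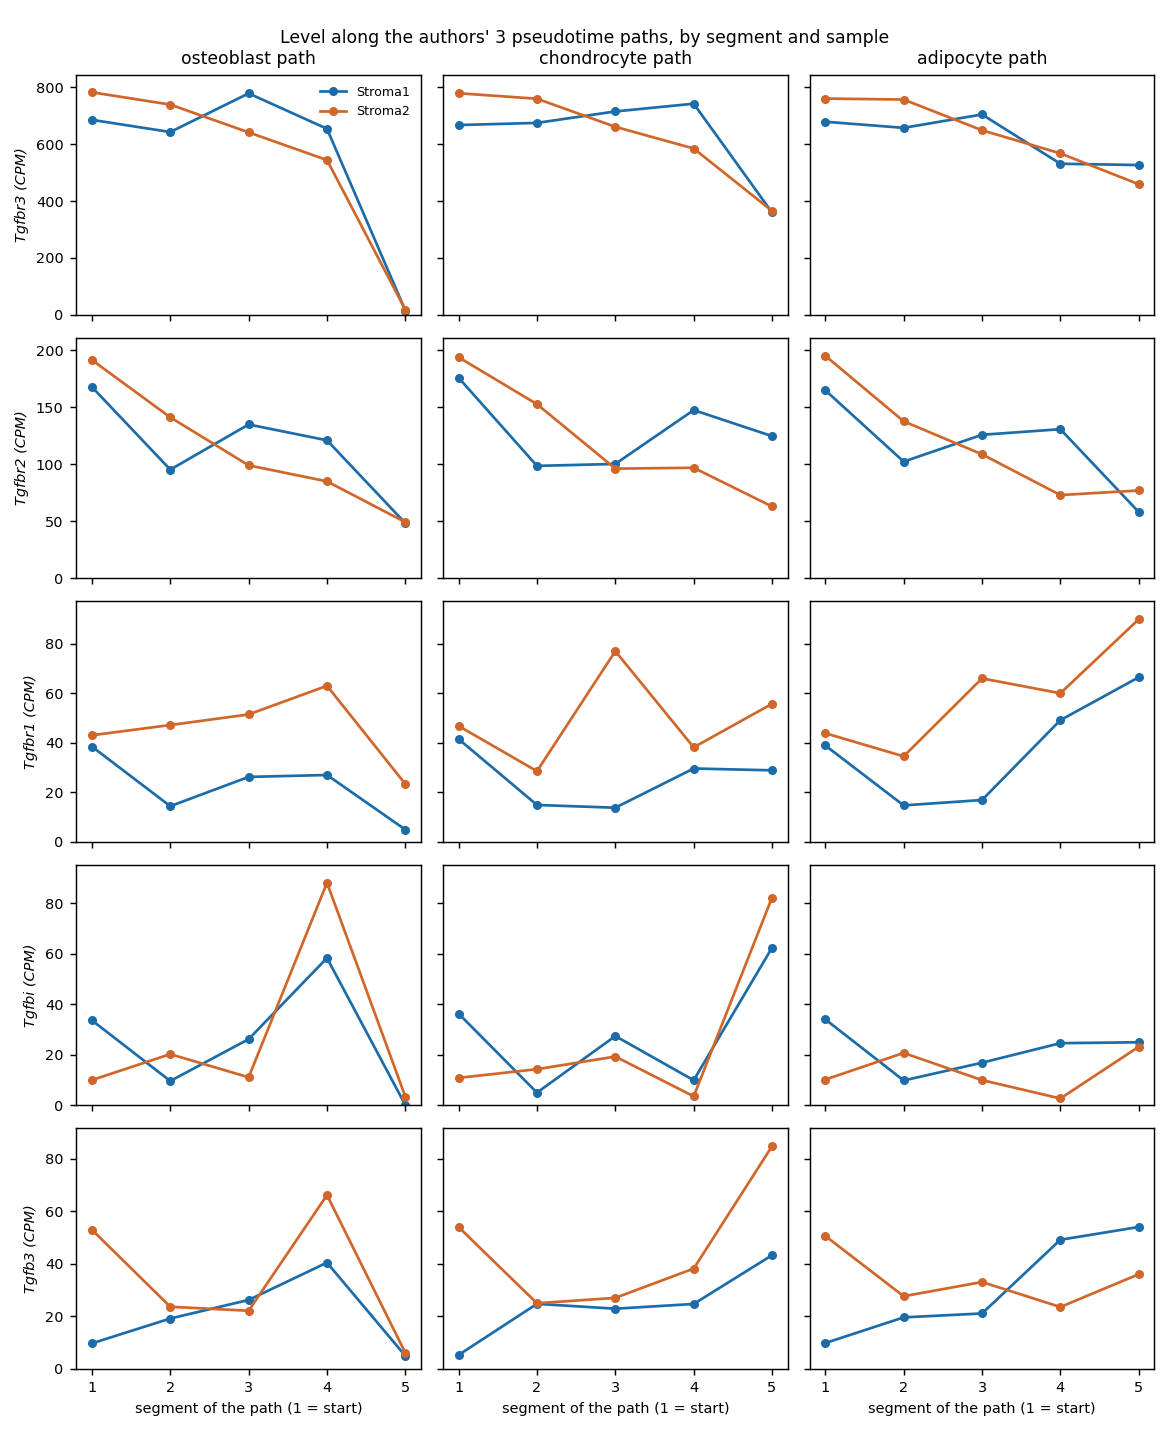
Level (vertical axis, CPM) of 5 members by segment of each path (horizontal axis, 1 is the MSC end) in Stroma1 and Stroma2. Tgfbr3 stays above 500 CPM through the fourth segment of the osteoblast path and is under 20 CPM in the last, and Tgfbi peaks in the fourth segment.

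The wider pathway was followed with a list of 57 other genes, of which 42 passed the filter of the class fit. From MSC to Osteoblast progenitor 9 of 42 rose and 3 fell, where 4.62% of all genes tested rose and 3.31% fell, and the median log2 change was 0.05 over the list and 0.01 over all genes. The targets Postn (a matrix protein of periosteum, log2 change 5.35, SE 0.39, from 6.35 ± 0.713 to 264 ± 6.08 CPM) and Fn1 (fibronectin, 3.14, SE 0.24, from 73.3 ± 6.65 to 625 ± 131 CPM) rose with Tgfbi. Acta2 (smooth muscle actin) was also called, but MSC held 1 count of it. The latency protein Ltbp2 (−0.94) and the activin binder follistatin, Fst (−0.95), fell.

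In the adipocyte direction 6 of 11 targets were called in the first step and 5 of 11 in the next, all of them higher. From MSC to Adipocyte progenitor 8 of 42 rose and none fell (3.95% and 0.225% of all genes; medians of 0.01 for the list and 0.01 for all genes), 6 of them among the 11 targets tested, such as Bhlhe40 by 3.05 (SE 0.36) and Junb by 2.39 (SE 0.15). From there to Pre-adipocyte 9 rose and 1 fell (4.29% and 0.674% of all genes; medians of 0.05 and −0.03), among them the nuclear repressors Tgif1 (3.48, SE 0.72) and Skil (1.80, SE 0.38), which restrain Smads, and Fn1, whose rise lay in Stroma2 (4.12) far more than in Stroma1 (0.47). Mmp14, a membrane protease, fell (−1.88, SE 0.43). Junb is an immediate-early gene, a class that cell isolation can induce: 7 immediate-early markers summed to 5166 and 5240 CPM in MSC, 26023 and 25427 in Adipocyte progenitor and 39192 and 36924 in Pre-adipocyte. Their part in these target changes was not tested.

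Toward bone, latency, activation and target genes of the list changed in both steps. The target Col1a1 is also among the 7 osteoblast markers, so its rise was not read as a response to TGF-beta. From Osteoblast progenitor to Pre-osteoblast/chondrocyte 8 of 42 rose and 10 fell, beside 4.62% and 4.69% of all genes and with medians of 0.10 for the list and −0.05 for all genes. Timp1 (a metalloprotease inhibitor, 3.75, SE 0.30), the collagen gene Col1a1 (3.19, SE 0.33) and Bhlhe40 (2.35, SE 0.57) rose, and Ltbp2 fell by 3.03 (SE 0.43), as 1 of 3 among 4 latency genes tested that fell. Fst and Acvr1b, the type I activin receptor, also fell, from 124 and 24 counts to 3 and 0. In the last step, to Pro-osteoblast, 9 rose and 11 fell with TMM, and 5 and 23 with total counts. Of all genes 9.01% rose and 8.24% fell there with TMM, and 3.11% and 30% with total counts, and the medians were −0.44 for the list and 0.06 for all genes. Thbs1, the activator thrombospondin 1, rose by 4.99 (SE 0.43, from 25.8 ± 10.8 to 442 ± 81.4 CPM), Col1a1 by 4.53 (SE 0.35) and Dcn, the TGF-beta binding proteoglycan decorin, by 3.90 (SE 0.18). Ctgf, a classic target, fell by 5.68 (SE 0.26, from 2049 ± 381 to 27.0 ± 14.7 CPM), Postn by 3.98 (SE 0.34) and Fbn1 (fibrillin 1) by 3.90 (SE 0.47).

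Of the 42 list genes, 12 were higher and 16 lower in Pro-osteoblast than the mean of the others with TMM (21.4% and 17.9% of all genes; medians of −0.62 and 0.03), and 7 were higher and 17 lower in MSC (11.2% and 9.46%; medians of −0.28 and 0.02). The scaling changed both: with total counts 9 were higher and 28 lower in Pro-osteoblast (6.58% and 57.9% of all genes). In MSC 13 were then higher and 11 lower (29.4% and 4.86% of all genes), with medians of 0.11 for the list and 0.42 for all genes. With TMM, Adipocyte progenitor had 9 higher and 8 lower (11.4% and 4.01% of all genes), Pre-adipocyte 19 and 9 (14.5% and 6.21%), Osteoblast progenitor 14 and 6 (5.99% and 3.16%) and Pre-osteoblast/chondrocyte 10 and 7 (6.92% and 5.23%). Pro-osteoblast was lower in 3 of 4 latency genes with TMM and in all 4 with total counts, where 57.9% of all genes were lower, with Ltbp2 at −5.02 (SE 0.43) and Fbn1 at −4.89 (SE 0.29), and higher in the activator Mmp2 (4.25, SE 0.12) and in Dcn (4.47, SE 0.10). MSC was higher in 3 of 4 latency genes, among them Ltbp2 (2.32, SE 0.14), and in Fst (2.16, SE 0.20). Of 7 listed receptors 4 were tested, and edgeR called 3 higher in MSC while DESeq2 called 1. Acvr1b, called by edgeR, stood at 83.9 ± 8.13 CPM in MSC, with at most 41.4 ± 18.5 CPM in another class. A gene can pass the count filter through a class where it is high, so this receptor count was not read as a trait of MSC. In MSC 0 of 11 targets were higher and 11 were lower than the mean of the other classes with TMM, and 0 and 8 with total counts (29.4% and 4.86% of all genes higher and lower). On the osteoblast path 12 of 36 listed genes rose and 12 fell (18.5% and 19.0% of all genes; medians of −0.02 for both), and with total counts 10 rose and 22 fell (6.55% and 54.5% of all genes). Of 7 listed receptors 5 were tested there, and all 5 fell with edgeR under both scalings, while DESeq2 called 4. They were Acvr1, Acvr1b, Acvr2a, Acvrl1 and Eng, named after their values were seen. A gene can pass the count filter through a segment where it is high, so this count was not read as a result about receptors. On the chondrocyte path 15 of 38 rose and 4 fell (9.49% and 9.15% of all genes; medians of 0.37 and 0.00), led by Fn1 (4.53, SE 0.29) and Col1a1 (4.03, SE 0.13), with Postn rising from 0 counts in the first segment. On the adipocyte path 11 of 38 rose and 2 fell (8.81% and 3.27% of all genes), and 11 and 7 with total counts (6.45% and 8.77%; medians with TMM of 0.12 and −0.01). With TMM, 7 of those that rose were among the 9 targets tested, with Junb at 3.92 (SE 0.14).

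**Figure D5:**
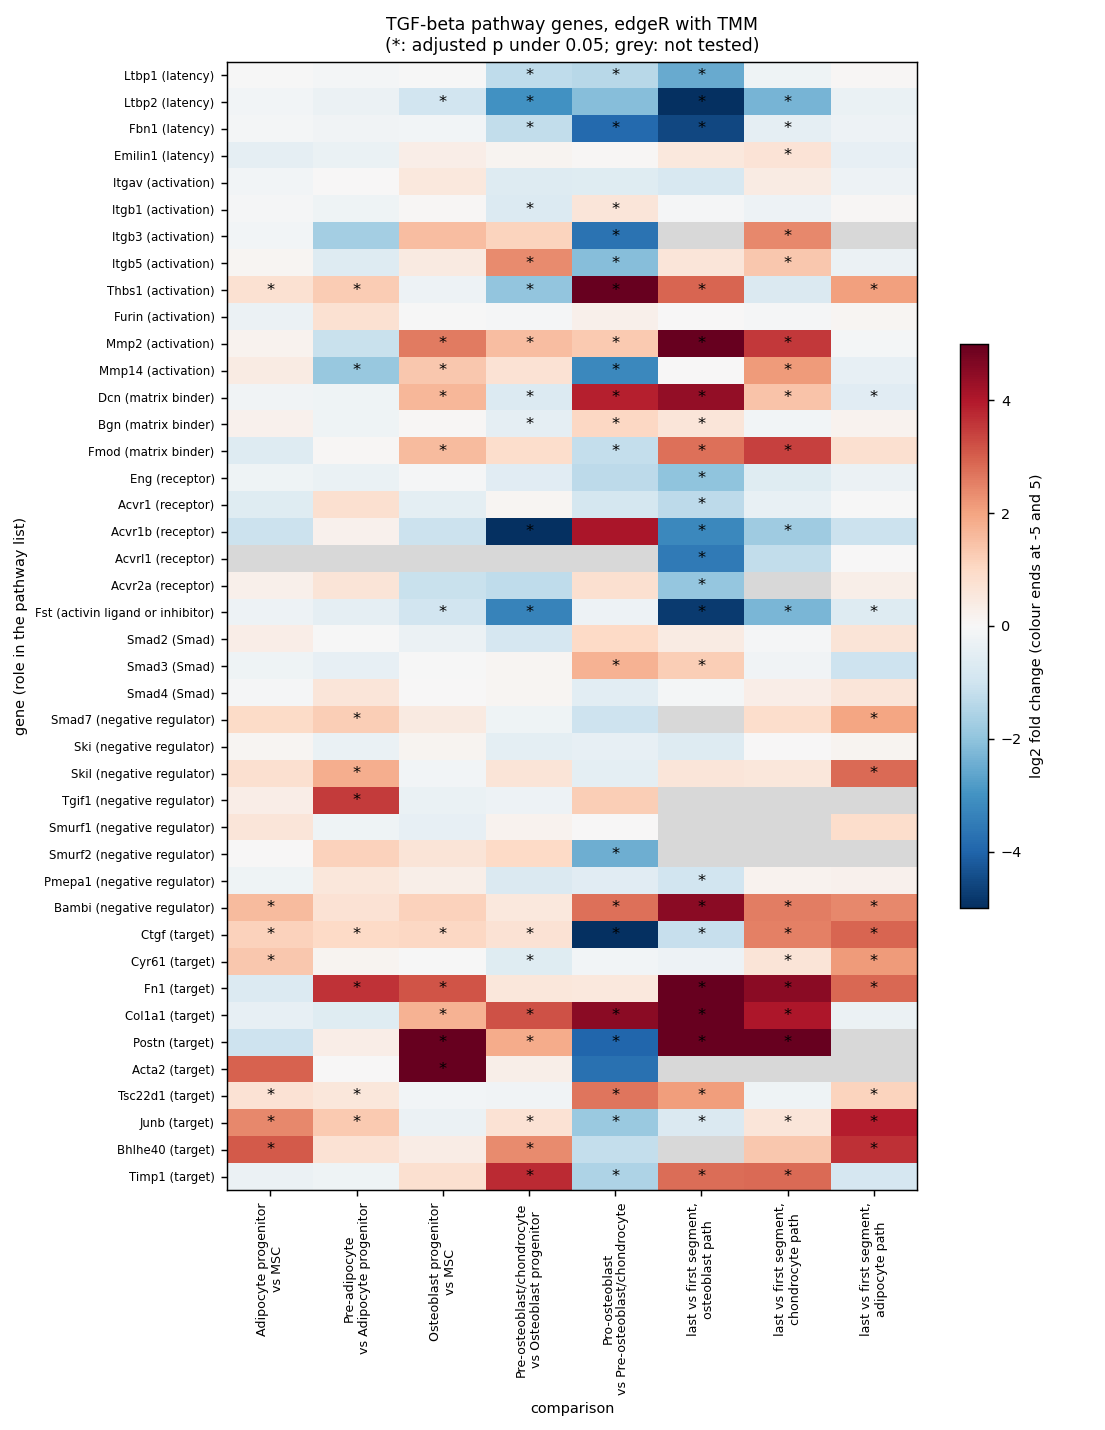
Heat map of edgeR log2 fold changes (colour, TMM scaling, ends at −5 and 5) for 42 pathway genes that passed a filter (vertical axis, with their roles) in 5 steps between classes and along 3 paths (horizontal axis); stars mark an adjusted p under 0.05 and grey a gene not tested. The latency genes Ltbp1, Ltbp2 and Fbn1 are blue toward Pro-osteoblast while Emilin1 is not, and the targets Junb, Bhlhe40 and Fn1 are red and starred along the adipocyte path; deep colours of Acvr1b and Acta2 rest on 0 to 2 counts in a class.

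The genes whose log2 CPM ran closest to each tested member over the 12 class and sample sums were listed by Pearson's r, a description without a test, over sums that share samples and differ in depth. Tgfbr3 ran with Pappa (0.995), Gas6 (0.990) and Notch3 (0.990), and Tgfb3 with Smurf2 (0.95), Pitpnc1 (0.946) and Znrf1 (0.888). Tgfbr1 ran with Cpq (0.949), Arih2 (0.910) and Marcksl1 (0.909), and Tgfbr2 with Rbm7 (0.95), Rsl1d1 (0.949) and Mtor (0.945). Tgfbi ran with Kcnh1 (0.919), Enpp3 (0.898) and Kctd12 (0.889), and Tgfb1 with Mrpl15 (0.854), 0610009B22Rik (0.847) and Galnt2 (0.836). Among the members themselves the highest r was that of Tgfbr3 with Tgfbi (0.769). Between the receptors r was 0.142 for Tgfbr2 with Tgfbr3, 0.421 for Tgfbr1 with Tgfbr3 and −0.0879 for Tgfbr1 with Tgfbr2. These values include sums without a count: Pre-osteoblast/chondrocyte held 0 Tgfbr1 counts in Stroma1 and 0 Tgfbr2 counts in Stroma2. The weight of these sums in r was not tested.

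Some counts could come from overlapping genes, since whether counting used strand is not given in the sources used here. In the GENCODE annotation of GRCm38, exons of Tgfb2 overlap the antisense gene Gm29491, those of Tgfb3 overlap Gm37804 and Gm48008 on the other strand, and those of Tgfbr3 overlap Gm43422 on the same strand.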

How the data were processed

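The authors deposited counts per gene and barcode from inDrops libraries, and the submitters' processing notes name Bowtie 1.1.1 and GRCm38. How reads were assigned to genes, by which annotation, and whether molecular identifiers were collapsed is not given in the sources used here. Per the file headers, the deposited pseudotimes are fractions from 0 to 1, and sample, library, filter and class are the authors' labels. Counts of passing cells were summed per sample and class (at least 15 cells in each sample) or per sample and segment of a path, and tested with edgeR 4.0.16 in R 4.3.3 (TMM, filterByExpr with a minimum count of 10, terms for class or segment and for sample, 5 residual degrees of freedom and a common dispersion of 0.0155 in the class fit). Benjamini-Hochberg adjustment covered 6229 genes, and 5709, 5596 and 5904 on the osteoblast, chondrocyte and adipocyte paths. The SE is the size of a log2 fold change over the square root of F. CPM used raw totals, without TMM. Cells were clustered again with scanpy 1.11.5 (Leiden, resolution 1.0). The fit was tested on simulated data.

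The members, the pathway list, the markers and the tests were chosen with earlier results of these data known. The rule for named genes takes all members and, of the pathway list, the 3 highest and 3 lowest called genes of each comparison with the same direction in both samples. A gene of the pathway list that this rule names is not reported here. For each tested member it also takes the 3 genes with the highest correlation. Alternatives were DESeq2 1.42.0 and its size factors, total counts, no count filter, no sample term, other bins, cells left out and each library or sample left out. Passing cells had medians of 1523.5 (Stroma1) and 1324 (Stroma2) counts. Intervals and floors of 3 counts cover counting error only.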

Additional observations from a re-analysis of the deposited data

Results flagged for a closer look

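The comparisons used passing cells only. The deposited table held 15028 barcodes, more than the passing cells and the barcodes described here together. Members were also counted in 585 barcodes of Stroma1 and 1675 of Stroma2 outside the authors' filter. Over these barcodes Tgfb1 stood at 33.9 CPM, Tgfbr3 at 30.7, Tgfbr2 at 25.0, Tgfbr1 at 11.6, Tgfbi at 7.36, Tgfb2 at 3.12 and Tgfb3 at 1.90, each above the limit that a count of 0 allows. Tgfb1 was higher there than in the passing cells (24.3 CPM), and Tgfbr3 (410 CPM in passing cells), Tgfb2 (20.4) and Tgfb3 (27.1) were lower. In the 513 of these barcodes that held blood markers, Tgfb1 reached 89.1 CPM, Tgfbr3 stood at 16.3 CPM, and no Tgfb2 or Tgfb3 was counted. In the 233 that held endothelial markers, Tgfbr2 stood at 225 CPM, Tgfbr3 at 115, Tgfb1 at 70.6 and Tgfbi at 48.3.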

How the results depend on the processing

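Of 84 tested member values 20 were called, and 10 of these kept their call in every alternative that tested them. No called value of a member or a named pathway gene changed sign among 2433 values under alternatives; 105 uncalled values did. Against the mean of the other classes 10 member calls (4 lower) became 2 lower without library 2.3. In the steps, 1 call of a higher member became 0 with DESeq2, without library 1.2 and without library 2.3. Along the paths, 6 member calls (1 higher, 5 lower) became 10 (9 lower) with total counts, 2 (0 higher, 2 lower) with DESeq2, 3 (2 lower) with a linear term, 3 without library 2.1 (0 higher, 3 lower) and 3 without library 2.2 (2 lower). There, 3 were lower without library 1.1, 0 were higher without library 1.2 or 2.3, and 2 were higher in 3 bins. Tgfbr2 in Pro-osteoblast went from 0.35 to −0.75 with total counts; the cause was not tested. With total counts the share of all calls that were higher went from 54.2% to 85.8% in MSC, 73.9% to 88.7% in Adipocyte progenitor, 65.4% to 92.5% in Osteoblast progenitor and 56.9% to 68.1% in Pre-osteoblast/chondrocyte. It went from 94.6% to 78.2%, 86.4% to 73.0%, 49.7% to 35.4% and 52.2% to 9.40% in the steps to Adipocyte progenitor, Pre-adipocyte, Pre-osteoblast/chondrocyte and Pro-osteoblast, and from 72.9% to 42.4% on the adipocyte path. Without the sample term as a replicate block, the member calls numbered 10, 4 and 6, as with it. The samples are 1 group, and their numbers pair no samples across groups. With 1 sample left out there are values and no test, since no residual degrees of freedom remain among samples: the Tgfbr3 difference in Pro-osteoblast was −3.90 to −3.81 and that of Tgfbi between Osteoblast progenitor and MSC 1.41 to 2.85. A test on 1 sample with the segment as a number was not run. Tgfb1, Tgfb2, Tgfbi and Inhba, with at most 130 counts each, are limited by depth.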

Other observations

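The 14 Pro-chondrocyte cells, which entered no class test, held 3 counts of Tgfb2, 2 of Tgfbr2 and 1 each of Tgfb1 and Tgfb3, all in Stroma2, and none of Tgfbr3, Tgfbr1, Tgfbi or Inhba. The total of these cells was 4417 counts in Stroma1 and 11696 in Stroma2.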
